A study of Mus musculus with 18 samples.

Results

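Threonine tRNAs of mouse brain were followed through 3 pools: intact tRNA, ribosome-contained tRNA and tRNA fragments. The members were all entries of the deposited count table named Thr, which came to 8 of 147 tRNA entries and 3 of 54 anticodon families. Thr-AGT held 5 entries (Thr3, Thr4, Thr6, Thr7 and Thr8), Thr-CGT held Thr9 and Thr11, and Thr-TGT held Thr13 alone. An anticodon family, or isoacceptor, groups the tRNAs of 1 amino acid that share an anticodon, and the entries within it are tRNAs of the same anticodon that the table counts separately. RefSeq (GRCm38.p6) annotates 9 threonine tRNA genes with the AGT anticodon, 4 with CGT and 4 with TGT, and these genes were not matched to single entries of the table.

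The series compared 3 wild-type (WT) and 3 Ftsj1 knockout (KO) males of the C57BL/6 strain at 8 weeks of age, with no treatment in either group. FTSJ1 is a methyltransferase that adds a methyl group to riboses in the anticodon loop of a small set of tRNAs, and threonine tRNAs are not among its best known targets. The 3 library types came from the same 6 mice, which gave 18 libraries. Total tRNA and fragments were cut as bands of the matching size from a gel of brain RNA, and ribosome-contained tRNA came from material prepared for ribosome profiling. The labels do not say whether the knockout is constitutive or which allele it carries, and mRNA of Ftsj1 lies outside these libraries.

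Cells read the threonine codons with 3 kinds of tRNA. The first base of the AGT anticodon is converted to inosine, which pairs with codons ending in U, C and A, whereas CGT reads the codon ending in G and TGT reads chiefly the codon ending in A. Threonine tRNAs carry threonylcarbamoyl adenosine (t6A) on the 3′ side of the anticodon, a modification of tRNAs that read codons starting with A, and 3-methylcytidine (m3C) in the anticodon loop. AlkB, the demethylase used before reverse transcription, acts on base methylation of the m3C kind and leaves t6A in place.

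Threonine reads numbered 88375 to 126249 per library in total tRNA, 14924 to 26943 in ribosome-contained tRNA and 5592 to 10038 in fragments. They were taken from libraries of 1505291 to 2000422, 406764 to 672127 and 85323 to 151056 tRNA reads, respectively. A share below is a percentage of all tRNA reads of a library, or of its threonine reads where so stated. Shares within threonine do not depend on how other tRNAs behave. No spike-in was used here, so no value is an absolute amount, and fewer cells of a type and less RNA per cell cannot be told apart in whole brain.

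Thr-AGT was the most abundant threonine isoacceptor in each of the 18 libraries, and the order of the others depended on the library type. In total tRNA of WT brain, Thr-AGT took 3.03% ± 0.0766 of all tRNA reads, Thr-CGT 1.72% ± 0.00478 and Thr-TGT 1.10% ± 0.0528 (SD, n = 3). These shares placed the 3 isoacceptors 11th, 20th and 32nd among 54 families by mean share over the 6 mice. In ribosome-contained tRNA of WT brain the shares were 2.33% ± 0.159, 0.745% ± 0.0322 and 1.03% ± 0.105, and the ranks 17, 37 and 33. In fragments of WT brain they were 3.41% ± 0.162, 1.54% ± 0.158 and 1.74% ± 0.0779, with ranks 11, 18 and 17. Thr-CGT thus stood above Thr-TGT in total tRNA, below it in ribosomes, and in fragments the WT ranges of the 2 shares overlapped across mice.

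**Figure D1:**
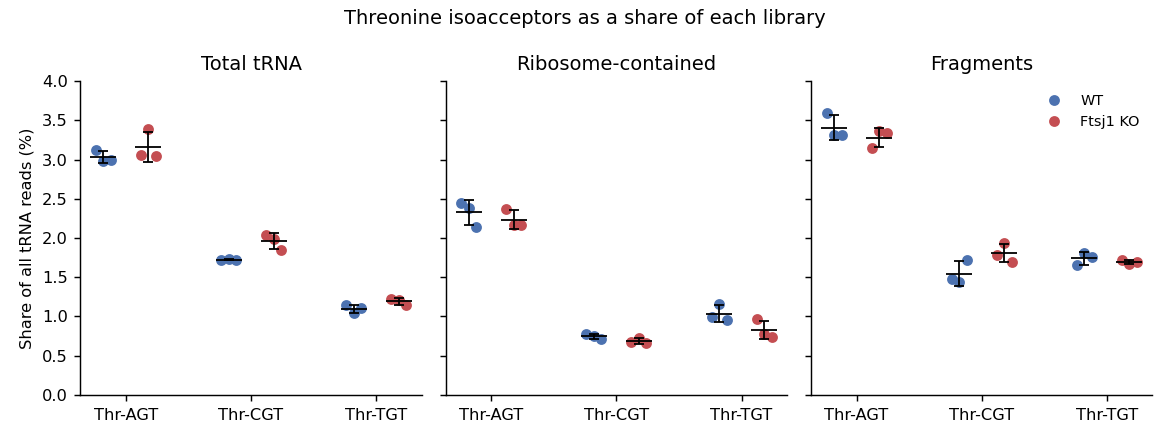
Share of all tRNA reads (%) taken by each threonine isoacceptor in total, ribosome-contained and fragment libraries; each point is 1 mouse (blue WT, red Ftsj1 KO), and black marks are the mean ± SD of 3 mice. Thr-CGT lies between 1.72% and 2.04% in total tRNA and between 0.658% and 0.771% in ribosome-contained tRNA.

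The ratio of Thr-CGT to Thr-TGT reads within each library puts this order in a form that library scaling cannot move. It ran from 1.50 to 1.67 over the 6 total libraries, from 0.654 to 0.934 over the 6 ribosome-contained libraries and from 0.796 to 1.16 over the 6 fragment libraries. The total and ribosome-contained ranges did not overlap, and every ribosome-contained library held fewer CGT than TGT reads. In fragments the ratio ran from 0.796 to 0.978 in the WT mice and from 1.00 to 1.16 in the KO mice, so CGT reads were fewer than TGT reads in each WT mouse and more in each KO mouse. The fragment means were 0.888 ± 0.0912 in WT and 1.07 ± 0.0814 in KO (SD, n = 3; exact two-sided permutation p = 0.1, the smallest possible, and 0.525 adjusted over 21 such comparisons of KO with WT, of which 4 had no overlap). Against total tRNA of the same mouse the ratio was 2.07-fold lower in ribosomes and 1.65-fold lower in fragments, in 6 of 6 mice each. The exact sign-flip permutation p was 0.0312 for each, the smallest that 6 mice can give, and 0.0398 after Benjamini-Hochberg adjustment over 14 such ratios.

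The comparison of ribosome-contained with total tRNA asked which threonine tRNAs take a larger or smaller share of ribosome-bound tRNA than of the tissue pool. Threonine as a whole took 5.99%, 5.75% and 5.81% of total tRNA reads in WT mice 1, 2 and 3 and 6.31%, 6.59% and 6.04% in KO mice 1, 2 and 3. In ribosome-contained tRNA it took 4.21%, 4.29% and 3.81% in the WT mice and 4.01%, 3.67% and 3.57% in the KO mice. Every ribosome-contained library lay below every total library. The share was 1.55-fold lower in ribosomes, in 6 of 6 mice (exact sign-flip permutation p = 0.0312, adjusted p = 0.0394 over 34 share ratios).

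Thr-CGT, the reader of the codon ending in G, was the threonine isoacceptor with the largest decrease. Its share of ribosome-contained tRNA was 2.57-fold below its share of total tRNA, in 6 of 6 mice, and that of Thr-AGT was 1.36-fold lower, in 6 of 6 mice (exact sign-flip permutation p = 0.0312 for each). Thr-TGT was lower in 5 of 6 mice (exact sign-flip permutation p = 0.0625). In WT brain edgeR's quasi-likelihood test gave log2 fold changes, ribosome-contained over total, of -1.26 for Thr-CGT (SE 0.10, adjusted p = 3.09e-17) and -0.43 for Thr-AGT (SE 0.09, adjusted p = 4.91e-05). For Thr-TGT it gave -0.14 (SE 0.10, adjusted p = 0.218), which did not pass the threshold of 0.05, though it passed in 2 of 12 alternatives, with no filter and without WT mouse 2. With 74.5% of all 51 families past that threshold, 2 of 3 threonine isoacceptors is close to the background, while Thr-CGT had the third lowest log2 fold change of the 51.

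Both entries of Thr-CGT were lower in ribosomes. Thr9, the major CGT tRNA, was 2.57-fold lower in its share of ribosome-contained than of total tRNA, and Thr11, the minor one, was 2.61-fold lower, each in 6 of 6 mice (exact sign-flip permutation p = 0.0312). The Thr9 to Thr11 read ratio had a mean of 4.87 ± 0.305 in total and 5.01 ± 0.877 in ribosome-contained libraries (SD, n = 6). The ranges overlapped, and the ratio was higher in ribosomes in 4 of 6 mice (exact sign-flip permutation p = 0.813).

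The AGT entries did not move together. Thr6 made up 10.7%, 11.0% and 10.3% of threonine reads in total tRNA of WT mice 1 to 3, and 10.4%, 10.5% and 9.64% in KO mice 1 to 3. In ribosome-contained tRNA it made up 14.8%, 16.2% and 15.3% in the WT mice and 15.0%, 15.6% and 16.5% in the KO mice. All ribosome-contained values of Thr6 were above all total values, a 1.49-fold rise within threonine in 6 of 6 mice (exact sign-flip permutation p = 0.0312). The shares of Thr3 and Thr4 within threonine were on average 1.04-fold and 1.06-fold higher, in 4 of 6 mice each, a difference within the spread between mice (exact sign-flip permutation p = 0.375 and 0.188). Accordingly the Thr4 to Thr6 ratio was 1.40-fold lower and the Thr3 to Thr6 ratio 1.43-fold lower in ribosomes, each in 6 of 6 mice.

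Fitted on all entries, Thr3 (log2 fold change -0.96), Thr4 (-0.95), Thr6 (-0.43), Thr9 (-1.65), Thr11 (-1.68) and Thr13 (-0.54) were lower in ribosome-contained than in total tRNA of WT brain by edgeR's quasi-likelihood test, at adjusted p of 0.000214 or less. In that fit 95 of 118 entries, or 80.5%, passed the threshold. These values depend on scaling, since the median of all entries was 0.14 with TMM factors and 0.59 with total reads, under which Thr6 turned to 0.02 and Thr13 came to -0.09, neither past the threshold. Thr13 holds the same reads as Thr-TGT, which did not pass when tested among families. A decrease of these reads in ribosomes therefore depended on whether scaling was computed over entries or over families.

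The comparison of fragments with total tRNA asked which threonine tRNAs take a larger share of the fragment pool. In read counts it separated AGT entries that share an anticodon. How reads matching several of them were counted is not given. Whether this assignment differs between fragments and total tRNA was not tested. Thr4 was the first or second most abundant threonine tRNA in each total library, and it ranked last of the 6 abundant threonine tRNAs in each fragment library. Thr4 made up 24.6%, 27.1% and 25.0% of threonine reads in total tRNA of WT mice 1 to 3, and 24.9%, 26.1% and 24.1% in KO mice 1 to 3. In fragments it made up 7.01%, 7.06% and 6.41% in the WT mice and 6.76%, 7.13% and 6.88% in the KO mice. No fragment library reached the lowest total library, and the fold difference within threonine was 3.68, lower in 6 of 6 mice (exact sign-flip permutation p = 0.0312).

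Thr6 went the other way. In fragments it made up 23.9%, 24.4% and 21.1% of threonine reads in WT mice 1 to 3 and 23.7%, 21.9% and 21.8% in KO mice 1 to 3. These values lay above every total value given before, and the share of threonine was 2.18-fold higher in 6 of 6 mice (exact sign-flip permutation p = 0.0312). Thr3 was 1.32-fold higher within threonine, also in 6 of 6 mice. Of AGT reads in WT brain, Thr4 took 49.4% ± 2.68 in total tRNA, 45.3% ± 2.05 in ribosomes and 13.4% ± 0.477 in fragments (SD, n = 3), and Thr6 took 20.6% ± 0.596, 27.3% ± 1.81 and 45.4% ± 2.51.

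The read ratio of Thr4 to Thr6 gives the contrast in 1 number per library. It ran from 2.30 to 2.50 in total, from 1.55 to 1.88 in ribosome-contained and from 0.286 to 0.325 in fragment libraries. The 3 ranges did not overlap. The ratio was 8.04-fold lower in fragments than in total tRNA of the same mouse, in 6 of 6 mice, with an SD of 0.06 on the log2 scale (exact sign-flip permutation p = 0.0312, adjusted p = 0.0398 over 14 ratios). Among 21 families with more than 1 entry of at least 100 reads on average, the spread of log2 fold changes between entries, fragments over total in WT, was 3.02 for Thr-AGT, the ninth largest, against a median of 2.09. Such spreads were therefore common in fragments, whereas for ribosome-contained over total tRNA Thr-AGT had a spread of 0.53, near the median of 0.52 over 20 families, and Thr-CGT had the smallest, 0.03.

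**Figure D2:**
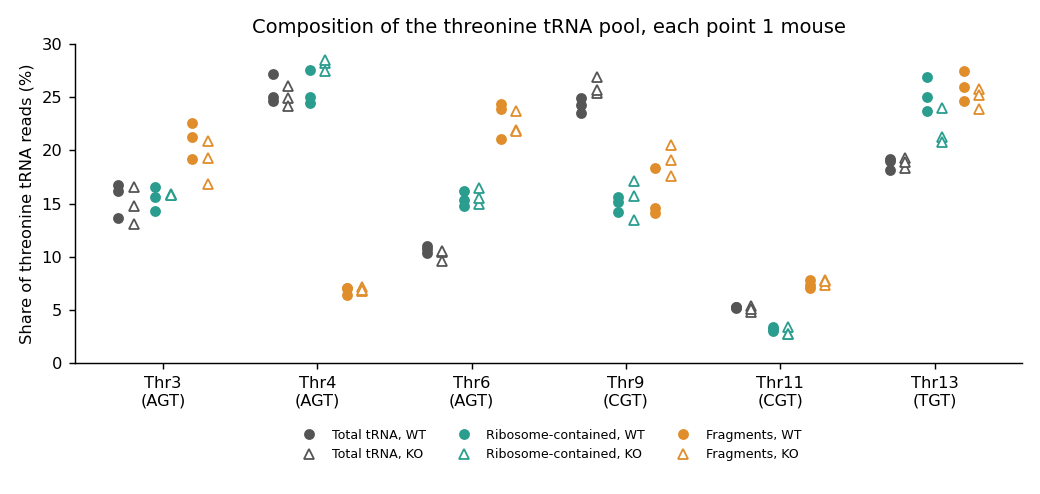
Share of threonine tRNA reads (%) taken by each of the 6 abundant threonine tRNAs, with the anticodon in brackets; each point is 1 mouse, colours mark the library type, filled circles WT and open triangles Ftsj1 KO. Thr4 falls from 24.1% to 27.1% in total tRNA to 6.41% to 7.13% in fragments, and Thr6 rises from 9.64% to 11.0% to 21.1% to 24.4%.

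The Thr-CGT entries also parted in fragments. Thr9 was 1.46-fold lower within threonine and Thr11 was 1.45-fold higher, each in 6 of 6 mice (exact sign-flip permutation p = 0.0312). Their read ratio ran from 4.50 to 5.30 in total and from 1.81 to 2.80 in fragment libraries, 2.11-fold lower in 6 of 6 mice (exact sign-flip permutation p = 0.0312). Thr-TGT, the single entry Thr13, took 1.50-fold more of fragment than of total reads in 6 of 6 mice. It was the most abundant threonine tRNA in each fragment library and the third in each total library.

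By edgeR's quasi-likelihood test in WT brain, fragments over total tRNA, Thr-TGT was higher (log2 fold change 0.93, SE 0.05, adjusted p = 6.58e-11) and so was Thr-AGT (0.44, SE 0.06, adjusted p = 2.24e-06). Thr-CGT did not pass (0.12, SE 0.07, adjusted p = 0.119), and it turned to -0.16 with total-read scaling. It was called higher in 2 of 12 alternatives, with DESeq2 size factors in edgeR (0.44, adjusted p = 0.000266) and with DESeq2 (0.44, adjusted p = 4.79e-06). Of the 49 families tested, 85.7% passed the threshold in either direction, beside 2 of 3 threonine isoacceptors, or 3 of 3 in those alternatives. The median of all families was -0.46 with TMM factors, -0.14 with DESeq2 size factors and -0.73 with total reads, and a change is to be read against that shift. The value of Thr-AGT ran from 0.17 to 0.77 over 12 alternatives. Per mouse, its share of all tRNA reads was 1.08-fold higher in fragments, in 5 of 6 mice (exact sign-flip permutation p = 0.0625, adjusted p = 0.0708 over 34 share ratios). Its share of threonine reads was lower in 5 of 6 mice (exact sign-flip permutation p = 0.156). Of single entries, Thr4 (-1.91, SE 0.08) and Thr9 (-0.62, SE 0.10) were lower, and Thr3 (0.44), Thr6 (1.11), Thr11 (0.49) and Thr13 (0.47) were higher, all past the threshold, as were 80% of 105 entries. Thr4 ranked 71st and Thr6 29th from the highest of those 105.

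**Figure D3:**
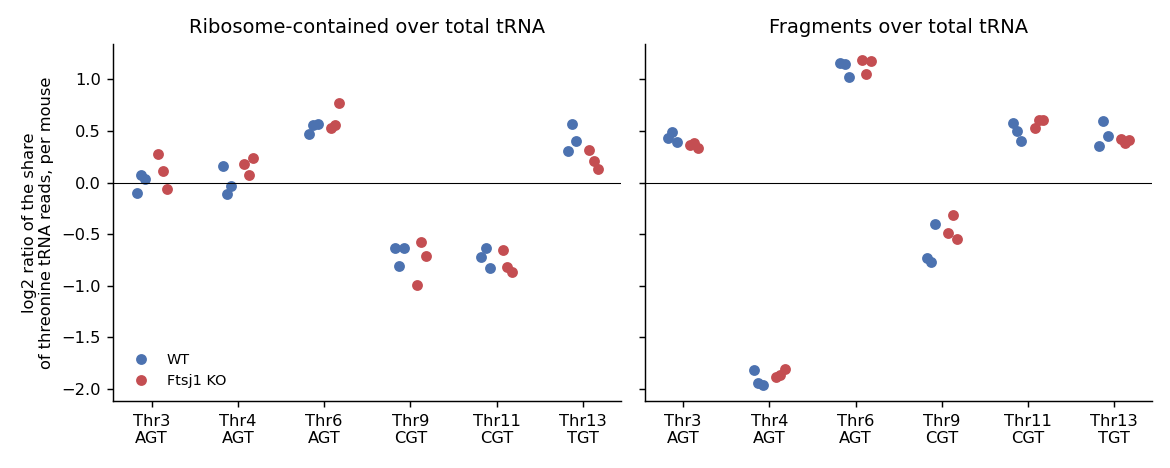
log2 ratio, per mouse, of each tRNA's share of threonine reads in ribosome-contained (left) or fragment (right) libraries over its share in total tRNA; each point is 1 mouse (blue WT, red Ftsj1 KO) and 0 means an equal share. Thr9 and Thr11 lie below 0 in all 6 mice on the left, and on the right Thr4 lies between -1.96 and -1.81 while Thr6 lies between 1.03 and 1.19.

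The comparison of KO with WT asked whether loss of Ftsj1 changed threonine tRNA in any pool. In total tRNA, the Thr-CGT share was 1.72%, 1.73% and 1.72% in WT mice 1 to 3 and 2.04%, 1.99% and 1.85% in KO mice 1 to 3. All KO mice were above all WT mice, with means of 1.72% ± 0.00478 and 1.96% ± 0.0964 (SD, n = 3; exact permutation p = 0.1, the smallest that 3 against 3 can give, and 0.275 adjusted over 22 shares). Of 50 families, 14% had KO mice all above WT mice, beside this 1 of 3 threonine isoacceptors. The log2 fold change of Thr-CGT was 0.15 (SE 0.06) and did not pass edgeR's quasi-likelihood test (adjusted p = 0.123, 0.0175 to 0.392 over the alternatives).

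Most of the difference in Thr-CGT of total tRNA lay in Thr9. Its share of total tRNA was 1.42% ± 0.0125 in WT and 1.64% ± 0.0807 in KO, without overlap, while that of Thr11 was 0.306% ± 0.00783 and 0.321% ± 0.0183, with overlap (SD, n = 3). Within Thr-CGT, Thr9 took 82.2% ± 0.501 of reads in WT and 83.6% ± 0.432 in KO, without overlap. For both of these Thr9 shares the exact permutation p was 0.1, and 0.275 adjusted over 22 shares. As a single entry Thr9 did not pass edgeR's quasi-likelihood test (log2 fold change 0.11, SE 0.07, adjusted p = 0.325). With total-read scaling it did (0.21, adjusted p = 0.0302, the lowest of 12 alternatives, which reached 0.614).

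Thr-AGT and Thr-TGT did not pass the test in total tRNA (log2 fold changes 0.03, SE 0.07, and 0.08, SE 0.06). No threonine isoacceptor therefore passed, beside 8.16% of the 49 families. Without adjustment 1 isoacceptor, Thr-CGT, had a p under 0.05, and DESeq2 and limma-voom called 0. Threonine as a whole went from 5.85% ± 0.123 to 6.31% ± 0.276, all KO mice above all WT mice (exact permutation p = 0.1, adjusted 0.275 over 22 shares). Of single families, 14% of 50 had KO mice all above WT mice. Within threonine, Thr-AGT took 51.8% ± 0.292 in WT and 50.0% ± 1.52 in KO, and Thr-CGT took 29.5% ± 0.672 and 31.1% ± 1.08, both without overlap (exact permutation p = 0.1, adjusted 0.275 for each).

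In ribosome-contained tRNA the largest difference was in Thr-TGT, the reader of the codon ending in A. Its share was 0.998%, 1.15% and 0.952% in WT mice 1 to 3 and 0.962%, 0.778% and 0.742% in KO mice 1 to 3. The groups overlapped, since KO mouse 1 stood above WT mouse 3 (exact permutation p = 0.2). edgeR's quasi-likelihood test gave a log2 fold change of -0.32 (SE 0.10), just outside the threshold (adjusted p = 0.0563, 0.000951 to 0.221 over 12 alternatives). It was past the threshold in 4 of them, among them the fit without KO mouse 1 (log2 fold change -0.42) and the fit with replicate number as a block (adjusted p = 0.0173).

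Thr-AGT (-0.05, SE 0.07) and Thr-CGT (-0.11, SE 0.08) did not pass in ribosome-contained tRNA either, and 22.4% of the 49 families did. The 0 calls of edgeR among threonine isoacceptors compare with 1 at an unadjusted p under 0.05 (Thr-TGT), 1 by DESeq2 and 0 by limma-voom. Within threonine, Thr-AGT took 58.0%, 55.6% and 56.4% in WT mice 1 to 3 and 59.1%, 59.0% and 60.8% in KO mice 1 to 3. All KO mice were above all WT mice, with means of 56.7% ± 1.25 and 59.6% ± 1.01 (SD, n = 3; exact permutation p = 0.1, adjusted 0.600). The Thr-TGT share of threonine was 25.2% ± 1.59 and 22.0% ± 1.75, with overlap (exact permutation p = 0.2).

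In fragments, Thr-CGT rose in KO brain by edgeR's quasi-likelihood test (log2 fold change 0.22, SE 0.07, adjusted p = 0.0197), the only threonine isoacceptor past the threshold in a comparison of KO with WT, beside 19.6% of 46 families that were called higher. Its share was 1.47%, 1.43% and 1.73% in WT mice 1 to 3 and 1.79%, 1.93% and 1.70% in KO mice 1 to 3. WT mouse 3 stood above KO mouse 3, so the groups overlapped, at means of 1.54% ± 0.158 and 1.81% ± 0.117 (SD, n = 3; exact permutation p = 0.2). The call was kept in 8 of 12 alternatives (adjusted p 0.000739 to 0.258). It was lost without WT mouse 1 (log2 fold change 0.18), WT mouse 2 (0.13), KO mouse 2 (0.19) or KO mouse 3 (0.25).

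Thr9 again held most of the fragment difference, 1.05% ± 0.172 in WT and 1.29% ± 0.122 in KO, beside 0.494% ± 0.026 and 0.514% ± 0.00579 for Thr11 (SD, n = 3), and both overlapped. As a single entry Thr9 had a log2 fold change of 0.29 (SE 0.11) by edgeR's quasi-likelihood test (adjusted p = 0.116, 7.15e-06 to 0.377 over 12 alternatives), and leaving out WT mouse 3 gave both the lowest p and a value of 0.45. Thr-AGT (-0.06, SE 0.06) and Thr-TGT (-0.04, SE 0.07) did not pass in fragments.

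None of the 6 abundant threonine entries passed edgeR's quasi-likelihood test of KO against WT when entries were tested singly. Thr9 in fragments was the 1 case with an unadjusted p under 0.05, and DESeq2 called it there, while limma-voom called 0. The background was 17.8% of 101 entries in total tRNA, 3.88% of 103 in ribosome-contained tRNA and 12.3% of 81 in fragments. Their log2 fold changes ran from -0.06 to 0.11 in total tRNA, from -0.26 to 0.05 in ribosome-contained tRNA and from -0.13 to 0.29 in fragments. Thr13 and Thr-TGT hold the same reads but had log2 fold changes of 0.01 and 0.08 in total tRNA, because scaling factors were computed over entries in the first case and over families in the second.

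**Figure D4:**
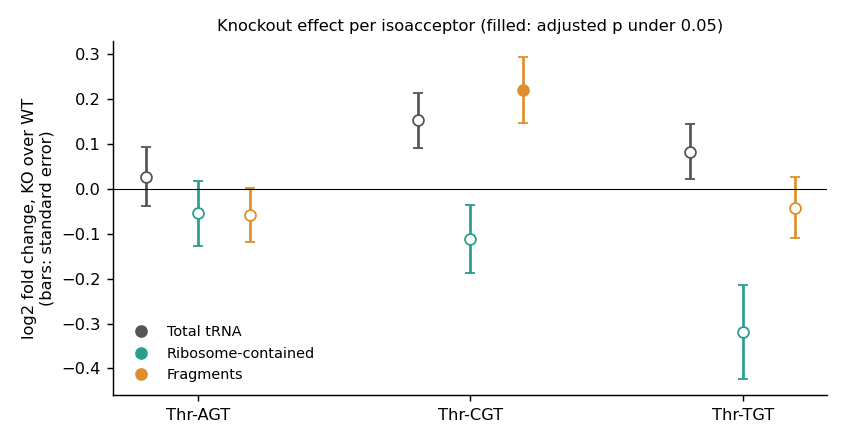
log2 fold change of KO over WT for each threonine isoacceptor in total, ribosome-contained and fragment libraries from edgeR, with bars of 1 standard error; filled points passed an adjusted p of 0.05. Thr-CGT in fragments (0.22) is filled, and Thr-TGT in ribosome-contained tRNA (-0.32) is the lowest point.

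Whether the KO effect differed between pools was tested as an interaction. Ribosome-contained minus total tRNA gave -0.37 for Thr-TGT (SE 0.15, adjusted p = 0.108), -0.23 for Thr-CGT (SE 0.14, adjusted p = 0.290) and -0.05 for Thr-AGT (SE 0.13) in edgeR's quasi-likelihood test. No family of 51 passed (0%), while 11 had an unadjusted p under 0.05, among them Thr-TGT, and DESeq2 called 7 and limma-voom 2. Thr-TGT passed in 7 and Thr-CGT in 6 of 13 alternatives, and both passed with DESeq2 size factors, DESeq2, total reads and TMM within each library type, with adjusted p over the alternatives of 0.000209 to 0.351 and 0.00529 to 0.351. Per mouse, the log2 ratio of the Thr-CGT share in ribosomes to that in total tRNA was -1.21 ± 0.0618 in WT and -1.51 ± 0.0685 in KO, and that of Thr-TGT -0.09 ± 0.203 and -0.53 ± 0.168 (SD, n = 3). Both were without overlap (exact permutation p = 0.1, adjusted 0.378 over 34 ratios), and 20.4% of 49 families had KO mice all below WT mice in this ratio.

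For fragments minus total tRNA, edgeR's quasi-likelihood test gave -0.25 for Thr-TGT (SE 0.08, adjusted p = 0.0275), where 22.4% of 49 families were called lower. The call was lost with the mouse as a block (adjusted p = 0.0693) and was kept in 6 of 13 alternatives (adjusted p 0.0219 to 0.586). The same reads, tested among entries as Thr13, gave 0.01 (SE 0.11). The median of all families in this fit was -0.19, and with TMM within each library type the value for Thr-TGT was -0.08 and the median -0.03. Thr-AGT (-0.21, SE 0.08, adjusted p = 0.0600) and Thr-CGT (-0.05, SE 0.09) did not pass, and Thr-CGT turned to 0.04 with total reads and 0.11 with TMM within each library type. The rise of Thr-CGT fragments in KO brain was thus not distinguished by this test from its difference in total tRNA.

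The tRNAs that carry t6A were read as a list of 15 families that includes the 3 threonine isoacceptors. Of these families 13 were tested in each comparison of KO with WT. The 10 tested members other than threonine had medians of 0.05 in total tRNA, -0.05 in ribosome-contained tRNA and 0.00077 in fragments. The values that follow are for the list with threonine. In total tRNA 1 of 13 was called, beside 8.16% of all families, namely Arg-CCT, which was higher (log2 fold change 0.23, SE 0.06), and the median of the list was 0.05 beside 0.03 for all families. In ribosome-contained tRNA 2 of 13 were called, beside 22.4% of all families: Ser-GCT was higher (0.37, SE 0.10) and Lys-CTT lower (-0.31, SE 0.07), with a median of -0.07 beside 0.05. In fragments 3 of 13 were called, beside 26.1% of all families: Thr-CGT, Asn-GTT (0.32, SE 0.10) and Arg-CCT (0.16, SE 0.06) were higher, with a median of -0.0048 beside -0.04. The list of 11 families with m3C, 9 of them tested, also includes the 3 threonine isoacceptors. In total tRNA 1 of 9 was called, Arg-CCT, beside 8.16% of all families, and the median was 0.08 beside 0.03. The median of this list in ribosome-contained tRNA was 0.11 beside 0.05, and 0.25 for its 6 tested members other than threonine. There 3 serine tRNAs (Ser-AGA, Ser-GCT and Ser-TGA) were called higher, beside 10.2% of all families called higher. The 3 threonine isoacceptors had negative values there and did not pass. In fragments 3 of 9 were called, again beside 26.1%: Ser-AGA was lower (-1.01, SE 0.17) and Thr-CGT and Arg-CCT were higher.

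Thr7 and Thr8, the remaining AGT entries, were at 0 to 9 reads in every library and add next to nothing to Thr-AGT. Thr7 had no read in the 6 fragment libraries, which allows a share of up to 0.000989% in WT and 0.00076% in KO at a limit of 3 counts over the pooled libraries of a genotype. Thr8 had 1, 1 and 3 reads in total tRNA of WT mice 1 to 3 and 9 in each KO mouse, and 7, 9 and 6 reads in ribosome-contained tRNA of the WT mice and 4, 1 and 4 in the KO mice. KO lay above WT in total tRNA and below it in ribosome-contained tRNA, without overlap in either. Among anticodon families, KO mice were all above WT mice in 14% of 50 in total tRNA. They were all below in 16.3% of 49 in ribosome-contained tRNA, and no such background was counted for single entries. Tested as an interaction of single entries, 5.93% of 118 entries passed for ribosome-contained minus total tRNA and 8.57% of 105 for fragments minus total. Of threonine entries 1 of 7, Thr8, and 0 of 6 passed, respectively, so the 5.93% includes Thr8. Thr8 entered the fits of ribosome-contained and total libraries only through the ribosome-contained WT libraries, where its reads per library size were highest and which were the only 3 of 12 libraries at or above the filter's limit, so its values in those fits are not read as tests. At such counts a few reads assigned from near-identical tRNAs would make up the value, and the counting rule for such reads is not given in the sources used here.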

How the data were processed

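The authors deposited raw read counts of 147 tRNA entries in 18 libraries, in 1 table. Per the labels' protocols, RNA was treated with AlkB and a 3′ adaptor was used; the submitters' processing notes name Bowtie2. The sources used here do not give its settings, the tRNA reference, the build or how reads matching several tRNAs were counted, so reads of near-identical threonine tRNAs may have been split or shared. No mature tRNA sequence is printed, and no coordinates are given. PCR copies were not told apart, and limits on counts cover counting error only. One ribosome-contained column headed K3 was taken as KO mouse 3.

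Groups were taken from sample titles. The members and lists were chosen with earlier results of these data known. All 8 threonine entries and 3 families are described, and other list members are named where they passed in a comparison of KO with WT. Entries were summed to 54 anticodon families. Families and entries were each tested over the whole table with the quasi-likelihood test of edgeR 4.0.16 (R 4.3.3), with TMM factors, filterByExpr at a count minimum of 10, and Benjamini-Hochberg adjusted p under 0.05. KO was compared with WT over the 6 libraries of a type, and library types and interactions over 12 libraries in 4 groups. The standard error was the absolute log2 fold change over the square root of F. Interactions of single entries and read ratios by genotype were added after the data were seen. Shares and ratios were tested by exact two-sided permutation (SciPy 1.17.1), by genotype or by flipping signs over 6 mice. Non-overlap of shares was counted over families with a mean count of at least 10. The procedure was tested on simulated data with independent libraries and few changed families or entries. That setting does not cover the pairing of libraries or the many differences between library types. Alternatives were DESeq2 size factors, total reads, no filter, DESeq2 1.42.0, limma-voom (limma 3.58.1), TMM within library type for interactions, a replicate block, and each mouse left out. Tables used pandas 2.3.3 in Python 3.11.15, plots matplotlib 3.10.9.

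Libraries of 1 mouse are paired, since the source names give the mouse; their deviations from group means correlated at -0.34 to 0.64 over 46 families. The labels name separate mice, and p-values of permutation tests and of KO against WT within a pool measure the spread between them. The main edgeR fits of library types and interactions ignored the pairing, so their p-values measure the spread between libraries. Only the replicate block alternative used the mouse in those fits.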

Additional observations from a re-analysis of the deposited data

Results flagged for a closer look

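The KO effect on Thr-TGT differed between fragments and total tRNA by a log2 value of -0.25 (SE 0.08; edgeR's quasi-likelihood test, adjusted p = 0.0275). It was called in 6 of 13 alternatives (adjusted p 0.0219 to 0.586) and lost with the mouse as a block (adjusted p = 0.0693), with total reads (log2 difference -0.16), with no filter (-0.22), with TMM within each library type (-0.08) and without WT mouse 2 (-0.19), WT mouse 3 (-0.25) or KO mouse 2 (-0.25). Tested as the single entry Thr13, which holds the same reads, the difference was 0.01 (SE 0.11). Per mouse, the ratio of the Thr-TGT share in fragments to that in total tRNA overlapped between WT and KO (exact permutation p = 0.2).

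The KO effect on Thr8 differed between ribosome-contained and total tRNA by a fitted log2 value of -3.23, on 1 to 9 reads per library. Thr8 passed the count filter only through the ribosome-contained WT libraries, a selection that favours a negative value here, so the value is given as a description and no test is read from it.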

How the results depend on the processing

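Of the threonine log2 fold changes between library types in WT brain, the following kept direction and call in all 12 alternatives. Among isoacceptors these were Thr-AGT and Thr-CGT in ribosome-contained tRNA, and Thr-AGT and Thr-TGT in fragments. Among entries they were Thr3, Thr4, Thr9 and Thr11 in ribosome-contained tRNA, and Thr4, Thr6, Thr9, Thr11 and Thr13 in fragments. Thr8 is left out, since its values in those fits are not read as tests. The 288 re-computed share ratios (other scaling, or each mouse left out) moved by less than 1 SD. Leaving out 1 mouse cannot move such a mean by 1 SD at these group sizes, so only the other scaling could have shown a move.

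The number of threonine isoacceptors called, KO against WT in ribosome-contained tRNA, went from 0 to 1 with DESeq2 size factors, DESeq2 and the replicate block. For the interaction of ribosome-contained minus total tRNA it went from 0 to 2 with DESeq2 size factors, total reads, DESeq2 and TMM within each library type. For fragments minus total it went from 1 to 0 with total reads, no filter, the replicate block and TMM within each library type, and to 2 with DESeq2. The number of single threonine entries called went from 0 to 1 in total tRNA with total reads and in fragments with DESeq2. Leaving out 1 mouse gave 0 to 1 isoacceptors called for KO against WT in each pool, 0 to 2 for the ribosome-contained interaction, 0 to 1 for the fragment interaction, and 0 to 1 single entries in ribosome-contained tRNA and in fragments. Over all families, calls ran from 1 to 9 (total), 3 to 22 (ribosome-contained) and 7 to 14 (fragments) for KO against WT, beside 4, 11 and 12, and from 0 to 13 and 8 to 17 for the interactions, beside 0 and 16; the cause was not tested.

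The following values changed sign. With total reads, KO over WT in total tRNA turned to 0.039 for Thr3, 0.081 for Thr4, 0.046 for Thr6 and 0.066 for Thr11, and in ribosome-contained tRNA to -0.0060 for Thr4. Also with total reads, Thr6 turned to 0.021 for ribosome-contained over total and Thr-CGT to -0.16 for fragments over total. With no filter, KO over WT turned to 0.0087 for Thr-TGT in fragments, -0.022 for Thr13 in total tRNA and -0.036 for Thr4 in ribosome-contained tRNA. The fragment interaction turned to 0.036 with total reads and 0.11 with TMM within each library type for Thr-CGT, and for Thr13 to -0.14 with DESeq2 size factors and with DESeq2, -0.16 with total reads and -0.032 with TMM within each library type. With 1 mouse left out, KO over WT in total tRNA ran from -0.018 to 0.043 for Thr-AGT, -0.17 to 0.0085 for Thr3, -0.072 to 0.034 for Thr4, -0.10 to 0.011 for Thr6 and -0.030 to 0.043 for Thr13. In ribosome-contained tRNA it ran from -0.13 to 0.054 for Thr3, -0.0013 to 0.18 for Thr4 and -0.11 to 0.057 for Thr9, and in fragments from -0.064 to 0.0033 for Thr6. The fragment interaction then ran from -0.12 to 0.024 for Thr-CGT and -0.22 to 0.030 for Thr13. Among interactions of other single entries the sign also changed, with no call in any alternative, for ribosome-contained minus total in Thr3 (-0.13 to 0.11), Thr4 (-0.087 to 0.20), Thr6 (-0.16 to 0.12) and Thr9 (-0.31 to 0.041), and for fragments minus total in Thr3 (-0.21 to 0.13), Thr4 (-0.12 to 0.27), Thr6 (-0.14 to 0.25) and Thr11 (-0.081 to 0.30).

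WT and KO mice of 1 number are different animals, and their deviations correlated at -0.48 to 0.11, so the block is no pairing by design; with it Thr-TGT in ribosome-contained tRNA had an adjusted p of 0.0173. Depth limits Thr7 and Thr8 to the counts given.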
